A study of Mus musculus with 96 samples.

Results

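The enzymes that modify, cleave and splice tRNA, with relatives that act on rRNA, mRNA, DNA or protein, were followed in single EL4 cells with and without CTCF knockdown. The genes were chosen by symbol family, among them Trmt, Nsun, Mettl, Pus, Trub, Elp, Ctu, Dus, Adat, Tyw, Tsen, Pop, Rpp and Alkbh. Of 24057 genes listed, 116 carried such a symbol and 104 of these had a value above 0 in at least 5 of the cells kept. Of the other 12 genes, 9 were at 0 in all cells and 3 had a read in 4 cells or fewer (Alkbh3os1, Mettl21c and Mettl20). Genes just inside that limit were Ctu1 and Trmt44, with 5 cells each, and Trmt61a with 8 cells. Some genes met the limit only through knockdown cells, among them Trmt61a, with no control cell, and Adat1 and Tyw3, with 1 control cell each. Symbols gather families by name, so the 104 genes include 15 whose product acts on protein or DNA, or whose substrate is not sure.

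EL4 is a mouse T-lymphoma line of C57BL/6 origin. WT cells carried a hairpin against luciferase (shLuc) and CTCFKD cells a hairpin against Ctcf (shCTCF), the gene of an insulator protein that helps to fold chromatin. The methods name a pair of hairpins against Ctcf, and it is not clear whether CTCFKD1 and CTCFKD2 also differ in their hairpin. Both conditions were infected with retroviral particles that also encoded GFP, and cells were taken 5 days after infection, GFP+ cells having been sorted to check the knockdown by RT-qPCR and Western blot. The cultures WT1 and CTCFKD1 formed experiment 1 and WT2 and CTCFKD2 formed experiment 2. Each of the 4 cultures was captured on a Fluidigm C1 circuit of its own and the 24 cells of best quality per circuit were kept for sequencing, so the culture, its circuit and, within an experiment, the condition cannot be told apart. The culture was the replicate, with 2 per condition, and 95 of 96 cells were kept. Median reads per cell were 247586 in WT1, 230477 in WT2, 234260 in CTCFKD1 and 131098 in CTCFKD2, so the values of CTCFKD2 rest on the fewest reads. Mean Ctcf was 60.3 TPM in WT1, 37.1 in WT2, 15.96 in CTCFKD1 and 44.9 in CTCFKD2. By these TPM values Ctcf was lower than its control in experiment 1 and not in experiment 2, which goes against the label. The RT-qPCR and Western blot values of the study are not reported here. Every direction below that includes CTCFKD2 is for the culture with that label. T-cell markers were present in all cultures (summed 6454 to 8460 TPM over 9 genes), while Cd79b, Ms4a1 and Pax5 of B cells, Lyz2 and Elane of myeloid cells, and Hba-a2 and Hbb-bs of erythroid cells were at 0. Other markers of these lists had reads. The B-cell list, through Cd79a, summed to 0 to 4.13 TPM by culture, and the myeloid list to 31.2 to 52.1 TPM, mostly from Cd68 (51.7 TPM in WT1, 52.01 in WT2, 46.4 in CTCFKD1 and 27.6 in CTCFKD2), with a few reads of Itgam and Csf1r.

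A tRNA is cut from a longer precursor by RNase P and RNase Z, spliced where it holds an intron, and then altered at many bases. Changes in and next to the anticodon tune which codons are read, and changes in the body of the molecule keep its fold. Dividing lymphoid cells make large amounts of tRNA and ribosomes, and the same enzyme families mark rRNA and mRNA. Many of these enzymes are kept at low mRNA levels, where a single cell often gives no read.

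As a group these genes lay higher in CTCFKD cells, although no single gene passed the test on culture means. The median log2 change (log2 of mean TPM + 1, CTCFKD minus WT) was 0.62 over the 104 enzyme genes and 0.04 over all 11980 genes tested. It was 0.49 against 0.04 in experiment 1 and 0.58 against 0.00 in experiment 2. The change was above 0 for 78 of 104 enzyme genes (75%), against 52.1% of all genes. In both experiments 51 enzyme genes were higher in the CTCFKD culture, against 30.1% of all genes, and 10 were lower in both, against 26.7%. Both CTCFKD cultures lay above both WT cultures for 40 enzyme genes (background 19.9%) and below both for 4, namely Adat3, Nsun4, Trmt2b and Tsen15 (background 16.9%). The medians and counts describe the list and carry no test. They include genes that entered only through CTCFKD cells, such as Trmt61a, Adat1 and Tyw3, whose direction was largely fixed by that entry. The genes behind the background met another limit, log2(TPM + 1) above 1 in 2 or more cells.

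At an adjusted p under 0.05, limma on culture means called 0 enzyme genes higher and 0 lower. The background was 0 of 11980 genes in each direction. The smallest limma adjusted p of an enzyme gene was 0.585, and the standard error of the log2 change had a median of 0.72 over the enzyme genes. At an unadjusted p under 0.05, 14 enzyme genes were higher (background 4.79%) and 0 were lower (background 2.82%). Among the 14 were Adat1, Tyw3 and Ctu1, which entered the list only through CTCFKD cells. When the log was taken in each cell before averaging, 1 enzyme gene passed as higher (background 0.367%) and 0 as lower (background 0.0167%). The gene was Ftsj3, described with the rRNA enzymes. On that scale the median of all genes moved to 0.23 and that of the enzyme genes to 0.96.

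**Figure D1:**
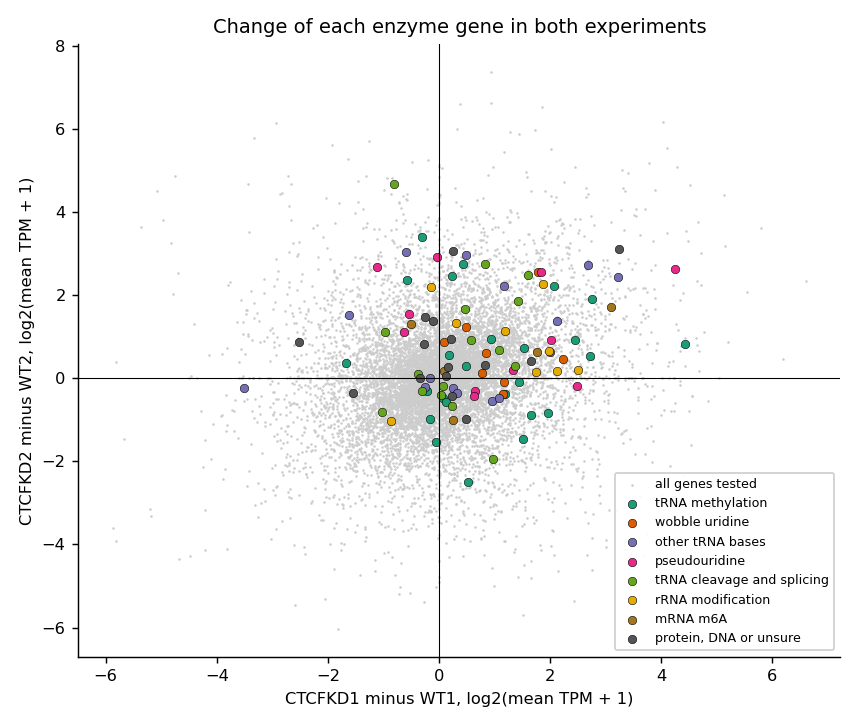
Log2 change of each gene in experiment 1 (x axis) and experiment 2 (y axis), from log2(mean TPM + 1) per culture, with all 11980 genes in grey and the 104 enzyme genes coloured by role. Above 0 on both axes lie 51 enzyme genes and below 0 on both 10.

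Promoters are shown here for some members with both CTCFKD cultures above both WT cultures, as examples that each hold a short motif known from promoters of growth genes. RefSeq promoters (GRCm38.p6, 250 bases before and 50 after the start) matched 90 of the 104 genes. CACGTG, the E-box bound by Myc and related factors, was searched on both strands and found in 13 of 90 promoters (14.4%), against 9.9% of 11568 promoters of genes tested and 7.2% of all 32851 promoters. CCGGAAG, an ETS-type motif, was found on either strand in 26 of 90 (28.9%), against 18% and 8.9%. AGGGGGCGC, a core of the CTCF motif, was found in 2 of 90 (2.2%), against 2.2% and 1.2%. Of the 90, 33 had both CTCFKD cultures above both WT cultures. Among these 33, 6 held the E-box, 9 the ETS-type motif and 0 the CTCF core, and a link of motif and level was not tested. The E-box and the ETS-type motif do not overlap. In the following lines capitals mark an E-box in Rpp38 (chr2:3332579-3332878, minus strand) and Mettl13 (chr1:162548296-162548595, minus strand). In Trmt61a (chr12:111677855-111678154, plus strand) they mark an ETS-type motif followed by an E-box, and in Dus1l (chr11:120796346-120796645, minus strand) a pair of ETS-type motifs read on the other strand. A match describes the letters only.
Rpp38: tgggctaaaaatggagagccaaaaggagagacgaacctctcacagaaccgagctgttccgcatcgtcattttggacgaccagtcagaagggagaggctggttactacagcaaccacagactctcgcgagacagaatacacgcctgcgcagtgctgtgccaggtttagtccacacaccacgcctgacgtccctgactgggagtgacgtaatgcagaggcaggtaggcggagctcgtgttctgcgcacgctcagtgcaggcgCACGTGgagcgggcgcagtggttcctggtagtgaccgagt
Mettl13: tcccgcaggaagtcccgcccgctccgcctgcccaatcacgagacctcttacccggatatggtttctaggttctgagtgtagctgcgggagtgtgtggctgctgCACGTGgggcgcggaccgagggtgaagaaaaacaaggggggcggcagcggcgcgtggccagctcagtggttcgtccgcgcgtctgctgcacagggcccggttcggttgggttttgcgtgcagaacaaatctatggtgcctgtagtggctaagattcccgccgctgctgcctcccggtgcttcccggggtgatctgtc
Trmt61a: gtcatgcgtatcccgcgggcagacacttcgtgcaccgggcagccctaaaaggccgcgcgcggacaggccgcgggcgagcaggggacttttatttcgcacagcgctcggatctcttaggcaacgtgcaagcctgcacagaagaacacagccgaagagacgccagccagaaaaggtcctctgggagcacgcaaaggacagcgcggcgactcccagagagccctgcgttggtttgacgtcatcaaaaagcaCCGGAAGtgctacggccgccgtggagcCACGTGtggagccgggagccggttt
Dus1l: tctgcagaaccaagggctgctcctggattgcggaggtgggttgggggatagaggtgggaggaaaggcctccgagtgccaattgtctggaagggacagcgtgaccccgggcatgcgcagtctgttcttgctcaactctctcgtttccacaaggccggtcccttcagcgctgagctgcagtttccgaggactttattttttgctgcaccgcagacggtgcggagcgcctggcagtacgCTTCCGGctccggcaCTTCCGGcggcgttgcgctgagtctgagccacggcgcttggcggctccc
The E-box began at base 11 of the transcript in Rpp38, at base 26 in Trmt61a and 147 bases before the start in Mettl13.

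The genes grouped under tRNA methylation formed the largest role, with 25 genes, and not all are methylases, since Alkbh1 and the cofactor Trmt112 are among them. Of the 25 genes, 18 had a log2 change above 0 (median 0.56). In both experiments 11 were higher and 3 lower, and none passed the adjusted test. Trmt6, the partner subunit of the enzyme that makes m1A in the tRNA body, had a mean of 10.4 TPM in WT1, 25.2 in WT2, 75.7 in CTCFKD1 and 96.4 in CTCFKD2. The CTCFKD cultures lay above the WT cultures without overlap, with a log2 change of 2.32 (SE 0.60, limma adjusted p = 0.585). With every cell thinned to 80000 reads, Trmt6 had a read in 8 of 24 cells in WT1, 10 of 23 in WT2, 20 of 24 in CTCFKD1 and 17 of 23 in CTCFKD2. Trmt6 lies at chr2:132804207-132816055 on the minus strand (GRCm38), and no other annotated exon overlaps it.

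Trmt61a, the catalytic partner of Trmt6, was close to the limit of detection. It had 0 reads in WT1 and in WT2, 168 reads in CTCFKD1 and 3 reads in CTCFKD2. The 0 of 47 WT cells allow a share of up to 6.38% of cells with a read. Against a floor of 3 reads over the WT cells, the pooled CTCFKD level was at least 75.4-fold higher. That fold rests on CTCFKD1, whose 168 reads came from 6 cells. Without that culture the 3 reads of CTCFKD2 were at the floor and gave no fold. Both bounds pool the cells of 2 cultures, cover counting error only and are no test. Trmt61a also entered the list only through CTCFKD cells.

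Among other body and anticodon methylases, Nsun2, which makes m5C, had means of 24.6 and 41.9 TPM in WT1 and WT2 and of 48.0 and 81.2 in CTCFKD1 and CTCFKD2. These groups did not overlap (log2 change 0.94, SE 0.54, limma adjusted p = 0.752), and its exons overlap Tent4a on the other strand. Mettl1, which makes m7G, had 3.75, 7.82, 12.8 and 13.6 TPM in WT1, WT2, CTCFKD1 and CTCFKD2, again without overlap. Trmt2a, which makes m5U, had 0.75 TPM in WT1, 5.61 in WT2, 6.31 in CTCFKD1 and 29.6 in CTCFKD2. The WT2 and CTCFKD1 values lay close together, and exons of Dgcr8 and Ranbp1 overlap Trmt2a. Thumpd3, a subunit of an m2G methylase, differed mainly in experiment 2, with 64.4, 43.9, 75.9 and 247.0 TPM in the same order, and exons of another gene overlap it on each strand.

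With log2 changes below 0, Trmt112, the small cofactor that Thumpd3 and several other methylases share, had 163.5, 131.9, 141.1 and 106.9 TPM in WT1, WT2, CTCFKD1 and CTCFKD2. Its log2 change was -0.26 (SE 0.36) and its groups overlapped. Exons of Prdx5 and Esrra overlap Trmt112 on the other strand. Mettl6, which makes m3C, had 116.4, 53.1, 35.9 and 68.6 TPM in that order, with no common direction in the experiments. Trmt13 had 7.70, 32.3, 7.38 and 10.5 TPM (log2 change -0.79, SE 0.94), and its difference came from experiment 2.

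All 8 genes that act on the wobble uridine had a log2 change above 0, from 0.39 to 2.16 (median 0.63). In both experiments 6 of them were higher and 0 were lower, and 7 or 8 of the 8 stayed above 0 when a culture was left out. The Elongator complex, of which Elp3 is the catalytic subunit, starts the side chain of this base, and Ctu1 with Ctu2 adds its sulfur. Elp5, the most abundant of the group, had 143.9 TPM in WT1, 162.8 in WT2, 258.8 in CTCFKD1 and 249.5 in CTCFKD2. The cultures did not overlap and each pair lay close together, with a log2 change of 0.73 (SE 0.31, limma adjusted p = 0.656). Elp5 shares exonic sequence with Ctdnep1 on the other strand, so reads of both cannot be told apart if strand was not used. Elp3 had 19.9, 42.3, 97.7 and 58.1 TPM in WT1, WT2, CTCFKD1 and CTCFKD2 (log2 change 1.34, SE 0.57). Elp2 had 95.7 TPM in WT1, 126.8 in WT2, 102.0 in CTCFKD1 and 234.2 in CTCFKD2, with overlap. Ctu1 was near the floor, with 20 and 0 reads in the WT cultures and 75 and 18 reads in the CTCFKD cultures. Ctu2 had 32.03, 23.9, 73.6 and 22.2 TPM in WT1, WT2, CTCFKD1 and CTCFKD2, so it was higher in experiment 1 and not in experiment 2.

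Enzymes of other tRNA bases were mixed, with 10 of 15 above 0 and a median of 0.30. The deaminases of this role differed in direction. Adat1, which turns adenosine into inosine next to the anticodon, had 0 and 1 reads in WT1 and WT2 and 87 and 34 reads in CTCFKD1 and CTCFKD2. After thinning it had a read in 0, 1, 5 and 5 cells of the 4 cultures, so its level rests on few cells. Adat3, the partner of Adat2 in the enzyme that makes inosine at the wobble position, had 19.3, 16.9, 0.79 and 14.05 TPM in WT1, WT2, CTCFKD1 and CTCFKD2. Its reads were 108, 44, 4 and 36 in that order, and after thinning it had a read in 3, 2, 1 and 2 cells. The log2 change was -1.88 (SE 1.18, limma adjusted p = 0.774), and exons of Scamp4 overlap Adat3 on its own strand. Adat2 had 9.41, 36.1, 11.4 and 30.3 TPM in that order and differed more between experiments than between conditions.

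Dus1l, a dihydrouridine synthase, was among the best covered genes of this role. It had 34.5 TPM in WT1, 81.5 in WT2, 140.2 in CTCFKD1 and 125.9 in CTCFKD2. No overlap was seen between the conditions (log2 change 1.31, SE 0.50, limma adjusted p = 0.627). Tyw3, an enzyme of wybutosine synthesis, had 0 and 1 reads in the WT cultures and 73 and 43 reads in the CTCFKD cultures, with Cryz overlapping on the other strand. Both subunits of the enzyme that inserts queuine were seen, with unlike values. Qtrt1, the catalytic subunit, had 62.2, 75.3, 131.8 and 53.9 TPM in WT1, WT2, CTCFKD1 and CTCFKD2, and Qtrtd1 had 8.77, 0.85, 12.7 and 13.4 TPM. Osgep, the catalytic subunit of the t6A-forming KEOPS complex, had 39.4, 73.3, 77.1 and 50.1 TPM in that order, with overlap.

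Pseudouridine synthases turn uridine into its carbon-linked isomer in tRNA, rRNA and mRNA. All 11 had a log2 change above 0 (median 0.78, from 0.10 to 3.43), but only 4 were higher in both experiments, namely Rpusd1, Rpusd2, Rpusd3 and Pus7. At 80000 reads per cell 10 of 11 were above 0, and without CTCFKD2 8 of 11 were, with a median of 0.38. Rpusd1 had 2.82 TPM in WT1, 2.69 in WT2, 71.2 in CTCFKD1 and 21.7 in CTCFKD2. The conditions did not overlap (log2 change 3.43, SE 0.90, limma adjusted p = 0.585), and the log2 change was 1.48 with logs averaged over cells. It rested on few cells, since after thinning Rpusd1 had a read in 2 and 1 cells of WT1 and WT2 and in 8 and 6 cells of CTCFKD1 and CTCFKD2. Pus7 was more widely detected, in 5, 4, 18 and 18 cells in the same order. Its means were 8.33, 3.74, 32.4 and 26.98 TPM (log2 change 2.20, SE 0.78, limma adjusted p = 0.610). Rpusd4, which acts in mitochondria, had 16.5, 47.3, 96.8 and 41.1 TPM, and Pus1 had 134.1, 59.95, 86.5 and 129.4 TPM, and in both the conditions overlapped.

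Of the genes of tRNA cleavage and splicing, 9 of 16 had a log2 change above 0 (median 0.40), close to the 52.1% of all genes, and 8 of 16 with a pseudocount of 10 or at 80000 reads. RNase P and the related RNase MRP share most of their protein subunits, encoded by the Pop and Rpp genes. Rpp21 had the highest level of all 104 genes, with 681.4 TPM in WT1, 443.4 in WT2, 702.8 in CTCFKD1 and 335.3 in CTCFKD2. Its values followed the experiment and not the condition (log2 change -0.18, SE 0.44). Rpp25l, with 173.9, 148.6, 134.1 and 160.2 TPM in the same order, and Pop7, with 144.8, 161.2, 151.5 and 140.3 TPM, also overlapped. For Rpp25l the log2 change was -0.13 on culture means and 1.55 with logs averaged over cells. Rpp30 had 19.8, 71.2, 53 and 87.05 TPM in that order, higher in both experiments but with overlap. Pop1, the largest protein subunit, had 15.1 TPM in WT1, 12.2 in WT2, 48.1 in CTCFKD1 and 72.5 in CTCFKD2. No other annotated exon overlaps Pop1 (chr15:34495304-34530648, plus strand), and its log2 change was 2.04 (SE 0.57, limma adjusted p = 0.585). Pop1 had a read in 8 and 11 cells of the WT cultures and in 23 and 21 cells of the CTCFKD cultures after thinning. Rpp38, whose promoter is printed above, had 12.6, 8.76, 35.5 and 34.1 TPM in WT1, WT2, CTCFKD1 and CTCFKD2, also without overlap. Among the Pop and Rpp genes log2 changes ran from -0.18 in Rpp21 to 2.04 in Pop1.

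Elac2, the nuclear and mitochondrial RNase Z, had 18.9, 8.42, 34.4 and 61.7 TPM in WT1, WT2, CTCFKD1 and CTCFKD2 (log2 change 1.78, SE 0.69, limma adjusted p = 0.627). Elac1, the shorter RNase Z, had 1.05, 11.3, 3.03 and 2.19 TPM. The subunits of the tRNA splicing endonuclease showed no common direction. Tsen34, a catalytic subunit, had 16.3, 5.74, 7.51 and 2.82 TPM in that order, lower in both experiments. Tsen15 had log2 changes of -0.31 and -0.32 in the experiments. Tsen54 had 46.9, 1.02, 26.2 and 50.2 TPM, so its log2 change of 1.92 (SE 1.45) rests on WT2.

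The 9 genes grouped under rRNA modification, where Thumpd1 was placed with Nat10, had a median log2 change of 1.14. Over the alternatives it ran from 0.77 to 1.48. In both experiments 7 of the 9 were higher and 1, Nsun4, was lower. Nsun5, which methylates the large cytoplasmic rRNA, had 28.96 TPM in WT1, 14.3 in WT2, 108.1 in CTCFKD1 and 72.3 in CTCFKD2. The conditions did not overlap (log2 change 2.06, SE 0.56, limma adjusted p = 0.585), while Pom121 overlaps Nsun5 on the other strand. Ftsj3, needed for processing of pre-rRNA, had 36.6, 57.8, 84.8 and 127.6 TPM in WT1, WT2, CTCFKD1 and CTCFKD2 (log2 change 1.16, SE 0.46, limma adjusted p = 0.632). With logs averaged over cells its difference was 3.51 (limma adjusted p = 0.0485), and over all alternatives the limma adjusted p ran from 0.0485 to 0.879. After thinning Ftsj3 had a read in 7 and 10 cells of WT1 and WT2 and in 22 and 19 cells of CTCFKD1 and CTCFKD2.

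Nat10, the acetylase that makes ac4C in rRNA and tRNA, had 11.4 TPM in WT1, 19.2 in WT2, 52.7 in CTCFKD1 and 21.7 in CTCFKD2. WT2 and CTCFKD2 lay close together, so the difference was mainly that of experiment 1. Mettl5, which makes m6A in the small-subunit rRNA, had 54.3, 53.4, 67.3 and 135.2 TPM in WT1, WT2, CTCFKD1 and CTCFKD2, and Ssb overlaps it on the other strand. Nsun4, which acts on mitochondrial rRNA, had 14.2, 23.2, 7.40 and 10.7 TPM in the same order (log2 change -0.95, SE 0.77). Its change was 0.25 when logs were averaged over cells.

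The 5 genes grouped under mRNA m6A, where Mettl4 was also placed, had a median log2 change of 0.40. It was 0.98 without CTCFKD1 and 0.08 without WT2. Alkbh5, the m6A demethylase, was detected in all 95 cells and differed by less than its error, with 115.3, 108.1, 122.6 and 120.9 TPM in WT1, WT2, CTCFKD1 and CTCFKD2 (log2 change 0.12, SE 0.34). Mettl3, the catalytic subunit of the writer, had 50.99, 31.8, 35.6 and 80.3 TPM, and its partner Mettl14 had 11.1, 16.4, 13.3 and 7.64 TPM. Both overlapped between the conditions, and Tox4 overlaps Mettl3 on the other strand. Mettl16, a separate writer for a few RNAs, had 4.26 TPM in WT1, 15.5 in WT2, 44.2 in CTCFKD1 and 53.1 in CTCFKD2. The log2 change was 2.41 (SE 0.77, limma adjusted p = 0.597) and no annotated exon overlaps it.

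For the 15 genes with protein or DNA targets or none that is sure, the median log2 change was 0.27, with 10 above 0. Mettl13, which methylates a translation elongation factor, had 0.58, 1.28, 13.98 and 18.6 TPM in WT1, WT2, CTCFKD1 and CTCFKD2 (log2 change 3.17, SE 0.87, limma adjusted p = 0.585). It had a read in 2, 1, 4 and 5 cells after thinning. Mettl10, which acts on the same factor, had 87.8, 181.8, 98.5 and 219.8 TPM in that order and followed the experiment. Mettl9, a histidine methylase of proteins, had 35.9, 47.5, 11.6 and 36.7 TPM, and Alkbh6 had 217.0, 49.6, 179.9 and 87.99 TPM.

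**Figure D2:**
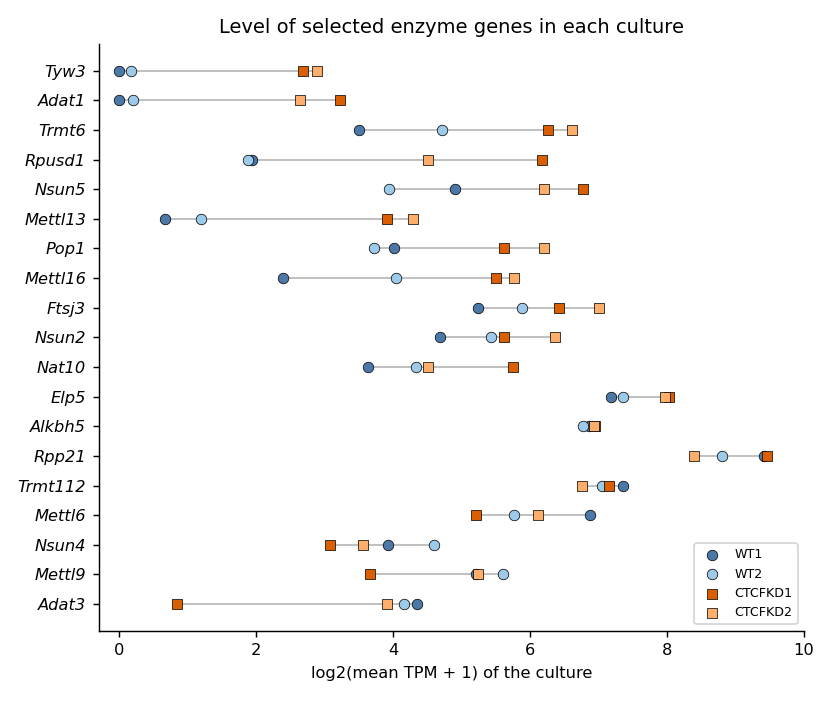
Level of selected enzyme genes in each culture as log2(mean TPM + 1), with circles for WT and squares for CTCFKD cultures; the 6 highest and the 4 lowest limma statistics are shown, with 9 genes named in the text between them. Squares lie right of both circles from Tyw3 down to Elp5, the marks of Alkbh5 nearly coincide, and those of Rpp21 overlap.

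Summed over the genes of a role, wobble uridine genes had 350.3 TPM in WT1, 453.2 in WT2, 643.5 in CTCFKD1 and 667.7 in CTCFKD2. Pseudouridine synthases summed to 223.9, 185.5, 435.6 and 380.0 TPM, and rRNA genes to 226.8, 239.7, 458.2 and 532.8 TPM, in the same order. Both CTCFKD sums lay above both WT sums in these 3 roles, and also for other tRNA bases (293.9, 382.6, 507.8 and 445.6 TPM) and mRNA m6A (182.4, 186.5, 220.7 and 284.9 TPM). They overlapped for the genes with protein, DNA or unsure targets, with 668.9, 695.1, 639.6 and 806.4 TPM, for methylation, with 651.0, 856.9, 851.0 and 1121 TPM, and for cleavage and splicing, with 1428, 1096, 1601 and 1323 TPM.

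**Figure D3:**
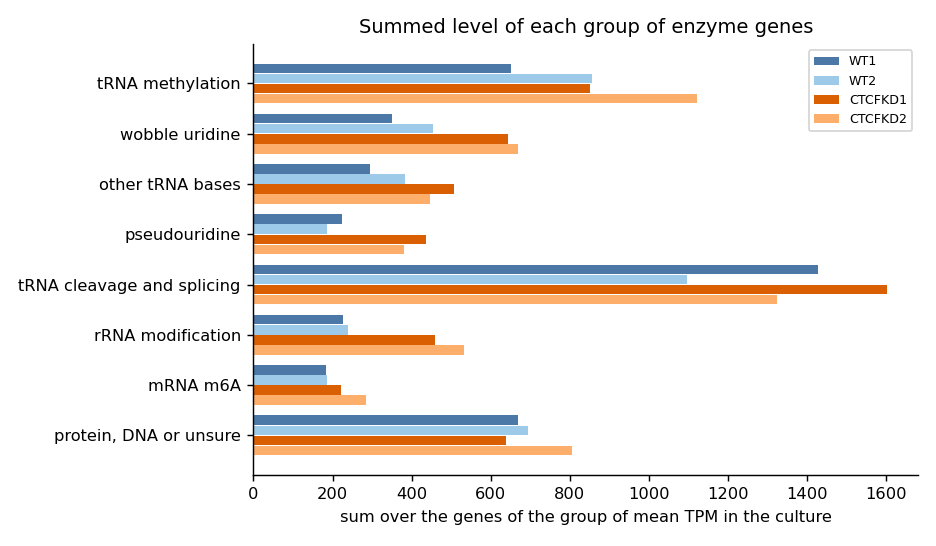
Sum of mean TPM over the genes of each role, one bar per culture, from 0. Both CTCFKD bars are longer than both WT bars for wobble uridine, other tRNA bases, pseudouridine, rRNA modification and mRNA m6A, while the bars of tRNA methylation, tRNA cleavage and the protein, DNA or unsure group overlap.

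The summed level of all 104 genes per cell was 4026 TPM in WT1 (SD 1405 over cells), 4095 in WT2 (SD 1127), 5357 in CTCFKD1 (SD 904) and 5562 in CTCFKD2 (SD 1285). Both CTCFKD means lay above both WT means, and 2 cultures against 2 cannot give a two-sided exact permutation p below 0.333. Rpp21 made up 16.9% of the sum in WT1 and 6.03% in CTCFKD2. Without it the means were 3344, 3652, 4654 and 5226 TPM in WT1, WT2, CTCFKD1 and CTCFKD2.

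More of the enzymes were seen per cell in the CTCFKD cultures. At 80000 reads per cell, the median number of enzyme genes with a read was 27 in WT1, 28 in WT2, 47.5 in CTCFKD1 and 47 in CTCFKD2. Cells ranged from 13 to 45 and from 16 to 46 in the WT cultures and from 35 to 70 and from 24 to 71 in the CTCFKD cultures, so single cells overlapped. Only 1 cell, of CTCFKD2, was too shallow for this depth. Unthinned medians were 32.5, 32, 58 and 51 enzyme genes. The number of all genes with a read moved in the same direction, with thinned medians of 4146, 3940, 5233 and 5219 genes. Per cell, enzyme genes made up a median of 0.690% of the genes detected in WT1, 0.706% in WT2, 0.925% in CTCFKD1 and 0.920% in CTCFKD2. The share of cells with a read was higher in both CTCFKD cultures than in both WT cultures for 75 of 104 enzyme genes, against 38.9% of all genes, and lower for 1, Tsen34, against 4.59%. Genes that entered the list only through CTCFKD cells, such as Trmt61a, are among the 75. The part of the number of genes detected in the changes of level was not tested.

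**Figure D4:**
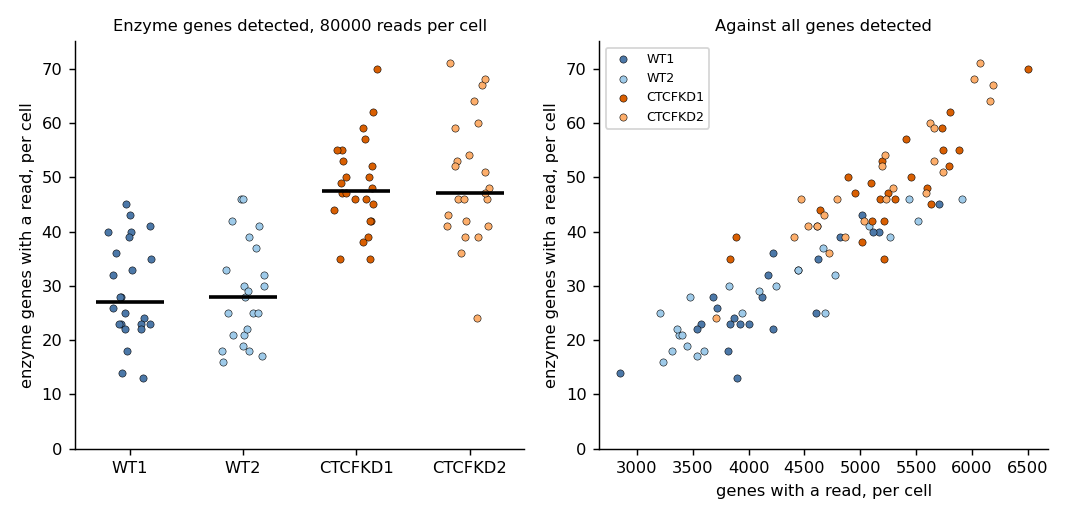
Left, enzyme genes with at least 1 read in each cell thinned to 80000 reads, by culture, with a line at the median (27, 28, 47.5 and 47 genes). Right, the same cells against the number of all genes with a read.

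Cell-to-cell variation was measured by the coefficient of variation (CV), which divides the SD of log2(TPM + 1) among cells of a condition by their mean. It was computed for the 83 enzyme genes, of 7843 genes, with a mean above 1 over the cells of both conditions together. Some of them passed only through CTCFKD cells, with WT means of 0.33 in Rpusd1, 0.48 in Trmt2a and 0.68 in Qtrtd1. A WT mean near 0 raises the WT CV, so for such genes a fall is partly built in. The enzyme genes started lower, with a median WT mean of log2(TPM + 1) of 1.87, against 2.67 for all 7843 genes. The median CV of the enzyme genes was 1.49 in WT and 0.99 in CTCFKD cells, against 1.07 and 0.80 for all genes. The median difference was -0.62, against -0.22 for all genes. By the limits of the study's rule, the mean difference of all genes less or plus 1 SD, 38 of 83 enzyme genes had a lower CV, against 11.3% of all genes, and 2 had a higher CV (Trmt13 and Tsen34), against 7.68%. This rule pools cells of both cultures and is no test. Its limits are the same for every gene, so genes with a high WT CV have more room to pass the lower one. The part of the lower WT level of the enzyme genes in these counts was not tested. With a mean above 1 required in both conditions, 34 of 65 enzyme genes were lower and 2 higher. Of the 7126 genes that met this, 14.6% were lower and 857 higher. Nsun5 (-0.70) and Mettl7a1 (-0.69) were just inside the lower limit of -0.69, and Tyw5 (-0.66) and Mettl4 (-0.65) just outside. All 9 pseudouridine synthases measured had a lower CV, although Rpusd1, Pus3 and Trub1 had WT means under 1. A lower CV was also found for 9 of 21 methylation genes, 6 of 14 cleavage and splicing genes and 5 of 8 rRNA genes. It was found for 3 of 9 for other tRNA bases, 1 of 6 wobble uridine genes and 1 of 5 m6A genes. Among genes with protein, DNA or unsure targets it was found for 4 of 11.

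A CV is lower when the mean is higher or when the spread is narrower, and both were read apart. The mean of log2(TPM + 1) was higher in CTCFKD cells for all 38 genes with a lower CV, by a median of 1.65, while the SD was lower for 6 of the 38. Over the 83 genes the mean was higher in 94% and the SD lower in 48.2%, against 71.1% and 70.6% of all 7843 genes. Rpusd1 had the lowest CV difference of the enzyme genes, with a CV of 3.93 in WT and 1.67 in CTCFKD cells. Its mean went from 0.33 to 1.81 and its SD from 1.31 to 3.03. In Ftsj3 the CV went from 1.40 to 0.39, with the mean going from 2.24 to 5.75 and the SD from 3.13 to 2.25. Pop1 also had both parts in that direction, with an SD of 2.31 in WT and 1.82 in CTCFKD cells. Trmt13, with a higher CV, had a mean of 2.70 in WT and 1.87 in CTCFKD cells. In Alkbh5 the CV was 0.10 in WT and 0.08 in CTCFKD cells, the lowest of the 83 genes.

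For the SD itself, compared over cultures, limma called 0 enzyme genes lower at an adjusted p under 0.05 (background 0.625%) and 0 higher (background 0.0383%). At an unadjusted p under 0.05, 3 enzyme genes had a lower SD (Elp5, Ftsj3 and Rpp25l), against a background of 12.8%. A higher SD was found for 5 (Elac2, Rpp38, Rpusd1, Rpusd3 and Trmt2a), against 2.46%. The median SD difference of the 83 genes over cultures was -0.01, and that of all genes was -0.23.

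**Figure D5:**
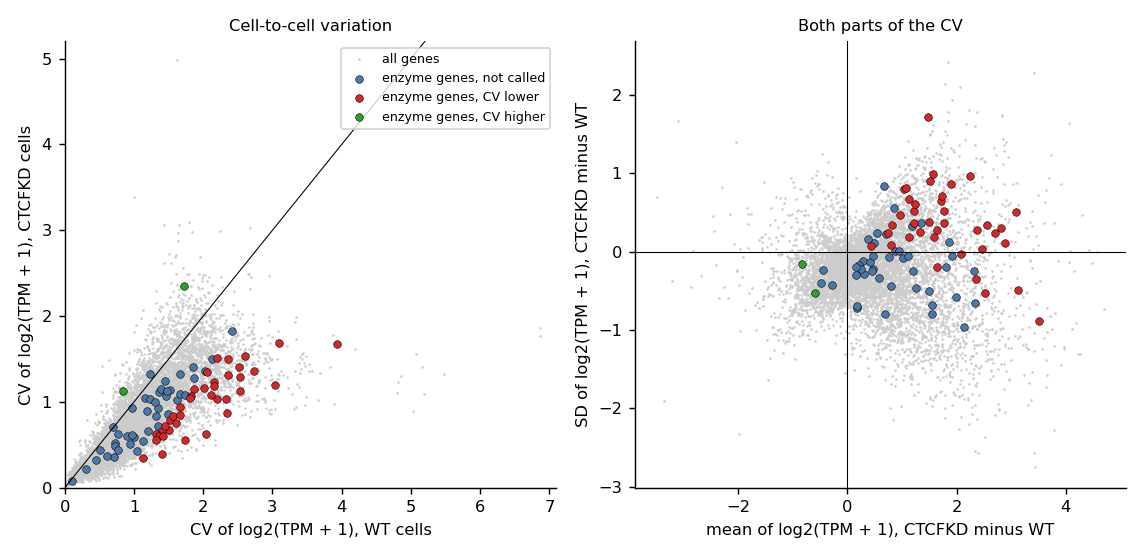
Left, CV of log2(TPM + 1) in WT cells (x axis) and CTCFKD cells (y axis) with the line of equal CV; right, the difference in mean and in SD of log2(TPM + 1), CTCFKD minus WT, with all 7843 genes in grey and the 83 enzyme genes coloured by the CV rule. The 38 genes with a lower CV all lie right of 0 on the mean, and 6 of them below 0 on the SD.

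Genes of the same pathways whose symbols fall outside the families were compared. Of 30 tested genes of tRNA modification, splicing and export, 23 had a log2 change above 0 (median 0.48), 18 were higher in both experiments (30.1% of all genes were) and 2 lower in both (26.7% of all genes). The CV rule found 5 of 26 of them lower and 0 higher, against 11.3% and 7.68% of all genes. Chosen after values were seen, Wdr6, the partner of Ftsj1, Kti12, which works with Elongator, and Wdr4, the partner of Mettl1, had log2 changes of 0.98 (SE 0.50), 1.77 (SE 0.80) and 1.27 (SE 0.77). Other partners lay near 0, with 0.22 (SE 0.39) for Lage3 of the KEOPS complex, 0.20 (SE 0.82) for Urm1, the sulfur carrier of the Ctu1 reaction, and 0.03 (SE 0.88) for Clp1, which binds the splicing endonuclease. Among 10 further genes of rRNA modification the median was 0.95, 8 were higher in both experiments and 1 lower in both, and the CV was lower in 2 of 8. Nop2, a relative of Nsun5 that methylates the large rRNA, had 25.9 TPM in WT1, 53.6 in WT2, 231.2 in CTCFKD1 and 207.7 in CTCFKD2 (log2 change 2.52, SE 0.46), and was named after its values were seen. For 22 further genes of mRNA modification the median was 0.27, with 11 higher in both experiments and 6 lower in both, the latter close to the 26.7% of all genes. By the CV rule 1 of 18 was lower and 2 were higher. None of these genes passed limma at an adjusted p under 0.05.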

How the data were processed

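Per the labels and the study's methods, reads were aligned by the authors to GRCm38 with STAR, unique alignments were counted on RefSeq genes with HTSeq, and the deposited values of 96 cells are TPM, that is, counts divided by gene length and scaled to the same total in every cell. The strand setting of the counting is not given in the sources used here. Members and lists were chosen with earlier results of these data known.

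One cell with fewer than 3000 genes was left out. Whole reads were recovered from the TPM steps of each gene over cells (each of 9602 genes seen in 10 or more cells came out whole, tolerance 0.001) and used for depth, detection and thinning to 80000 reads. Since reads carry no molecular identifiers, floors cover counting error only. Genes were kept where 2 or more cells had log2(TPM + 1) above 1, and were tested on log2(mean TPM + 1) of the 4 cultures by limma 3.58.1 in R 4.3.3, with a trend and Benjamini-Hochberg adjustment over 11980 genes. The pseudocount understates changes of low genes. No count model was fitted. Simulated data were run through the fit as a check of the code only, and the outcome is not reported here. CV and SD over cells used genes with a mean log2(TPM + 1) above 1. Pairing comes from the study's experiments, and over 11980 genes the deviations of same-numbered cultures correlated at 0.175. Over the 7843 genes with a mean log2(TPM + 1) above 1 the correlation was 0.275. Experiment 2 came from a separate knockdown, and p-values measure the spread between these cultures.

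Genes named are the extremes of the limma statistic over the members, the most abundant genes of each role and preset enzymes of each role, with the extremes of the CV difference; Mettl16, Pus7, Rpp38 and other genes outside this rule were named after their values were seen. Exon overlaps and gene coordinates are from GENCODE M21. Of the 104 genes, 37 share exonic sequence with a gene on the other strand and 8 with a gene on the same strand. The text names these overlaps for some genes only, and Elac2, Mettl1, Ctu2, Mettl6, Trmt13, Tsen34 and Adat2 also have one on the other strand. Alternatives were the scale of the mean, pseudocounts, filters, thinning, the replicate block and leaving out each culture.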

Additional observations from a re-analysis of the deposited data

How the results depend on the processing

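With the log taken in each cell before averaging, limma called 44 genes higher and 2 lower, 1 of them an enzyme gene. On culture means it called 0 and 0. The enzyme median was 0.96, and 85 enzyme genes were higher in both experiments and 4 lower, against 51 and 10. All genes moved the same way, with 46.3% higher in both experiments against 30.1%, and a median of 0.23 against 0.04. The enzyme median was 0.71 with a pseudocount of 0.1, 0.40 with 10, 0.69 at 80000 reads and 0.52 to 0.72 when a culture was left out. It stayed above 0 in every alternative run. The filters, centring on the median and the full set of 96 cells kept these counts within 1.5 times.

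By CV of linear TPM 25 of 83 enzyme genes were lower and 4 higher, with a median of -0.76. Of all 7843 genes 11.8% were lower and 701 higher, with a median of -0.31. The median CV difference was -0.59 with a pseudocount of 0.1, -0.70 with 10, -0.57 with means above 1 in both conditions, -0.55 with means above 2, -0.60 in experiment 1 alone, -0.58 in experiment 2 alone, where 1 gene was higher, and -0.70 at 80000 reads. Leaving out a culture gave -0.66 to -0.57 and 1 to 2 enzyme genes higher. Of all genes, 625 of 7830 were higher in experiment 2 alone, and 549 to 651 when a culture was left out. The median of all genes was -0.26 to -0.17 over these settings other than linear TPM. The difference in enzyme genes detected per cell, 19.8, was 17.2 at 40000 reads and 22.2 unthinned.

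With the replicate block, which pairs the cultures of an experiment, limma called 0 genes higher and 0 lower in expression, as without it. For Trmt6 and Nsun5 the limma adjusted p was 0.237 with the block and 0.585 without it. The SD calls over all genes, 3 higher and 49 lower, went to 0 and 0 with the replicate block, and also with a pseudocount of 10 and with genes above 1 in at least 2 cells. Leaving out a culture gave 8 to 47 genes with a higher SD and 8 to 254 with a lower SD, with 0 to 1 enzyme genes each way, the lone culture being assumed to vary like the others. The most, 254, came without CTCFKD2. The cause was not tested.

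Of 44 enzyme genes named by the rule, 17 changed the sign of their log2 change in some setting. Averaging logs gave 0.25 for Nsun4, 0.18 for Trmt112, 0.18 for Rpp21, 1.55 for Rpp25l and 0.32 for Mettl14, and a pseudocount of 10 gave -0.026 for Adat2. Leaving out a culture gave log2 changes of -0.71 to 0.35 for Rpp21, -0.36 to 0.79 for Mettl10, -0.24 to 0.64 for Osgep, -0.91 to 0.92 for Adat2, -0.067 to 1.73 for Rpp30, -0.34 to 0.81 for Pus1 and -0.78 to 1.33 for Alkbh6. The same gave -0.36 to 4.203 for Tsen54, -1.76 to 0.17 for Trmt13, -0.34 to 0.94 for Qtrt1, -0.31 to 1.38 for Ctu2, -0.11 to 1.08 for Elp2 and -0.18 to 0.98 for Mettl3. None of these genes passed the adjusted test. With 2 cultures per condition, no gene of 11980 passed on culture means at any size of change, with a median standard error of 0.71.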
